A study of Mus musculus with 24 samples.

Results

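The BCL2 family of apoptosis regulators was followed here across dispersed mouse islet cells exposed to palmitate (PA), a saturated fatty acid, with and without inhibition of a tRNA-derived fragment. The 10 members were the rows of the deposited gene table whose symbol was Bcl2, Bcl2l1, Mcl1, Bax, Bak1, Bbc3, Bcl2l11, Bid, Hrk or Pmaip1. All 10 were found among the 41549 genes of the table, and all 10 passed the filter on low counts that left 15916 genes for testing. Islets came from male and female wild-type C57BL/6NRj mice aged 12 to 14 weeks, were dispersed, and were transfected with an antisense oligonucleotide (ASO), either a control (Ctr) or one directed against the 5′ fragment of tRNA Glu(CTC) (αGlu). The cells then received 0.5 mM PA bound to bovine serum albumin (BSA), or 0.75% BSA as vehicle, for 48 h. Crossing both oligonucleotides with both exposures gave 4 groups, named Ctr BSA, αGlu BSA, Ctr PA and αGlu PA, with 6 libraries per group and 3 of these in each of the 2 batches named in the labels, which do not say what a batch was. Every group therefore shared the transfection, the BSA carrier and the dispersed mixed-cell culture, and no untransfected cells were measured. The study counts 6 independent experiments. Its reporting summary adds that all groups of a replicate were made from the same animal. The labels number the libraries without tying them to a preparation, so the main test treated them as unpaired and its p-values measure the spread between these libraries. Each set of 4 consecutive library numbers held 1 library of every group. Libraries of 1 set deviated together from the mean of their group and batch (median correlation 0.15 over 36 pairs). Among libraries of other groups in their batch, 23 of 24 correlated best with a library of their own set. The 72 pairs of different sets had a median of −0.08. That value is no separate evidence, because deviations from a mean of 3 libraries cancel out. A fit with these sets as a replicate block was therefore added after the data were seen, and its value is given where it changes a member's call.

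Proteins of this family decide whether the outer mitochondrial membrane is opened in the intrinsic pathway of apoptosis. BAX and BAK are the effectors that form the opening through which cytochrome c leaves, and BCL-2, BCL-XL and MCL-1 hold them in check. The BH3-only proteins tip this balance by binding the guardians or the effectors, and saturated fatty acids are known to act on β-cells through this arm of the family. Many of these proteins are controlled after translation, by cleavage, phosphorylation or degradation, which transcript levels do not report.

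The antisense oligonucleotide is shown because it defines the αGlu groups. It is complementary to the first part of the tRNA fragment, where capitals mark the bases that pair with it and the lower-case first base lies outside the pairing.
αGlu ASO: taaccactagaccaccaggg
5′ fragment of tRNA Glu(CTC), targeted stretch: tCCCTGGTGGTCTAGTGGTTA
The annotated transcripts of the members were searched for runs identical to the 20 paired bases of this 21-base stretch. The longest run was 10 bases, in Pmaip1, and runs at least that long occurred in 4.84% of the 15909 genes searched. Bcl2 and Bcl2l1 held a run of 9 bases (19.5% of genes), Bax and Bid one of 7, and the other 5 members one of 8, which was also the median over all genes. A shared run of letters is a description and not a site of action.

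The libraries held between 18214719 and 35001979 counts assigned to genes. Summed levels of 10 β-cell markers ranged from 84084 to 152138 on the counts-per-million (CPM) scale, and the labelled islet cell type therefore had its defining transcripts in every library. Markers of other cells were present beside them, and several of these lists moved with PA or with batch. In Ctr cells with PA, 7 of 8 tested fibroblast and stellate cell markers, 7 of 11 macrophage markers and 6 of 8 acinar markers fell, and none rose. Over all genes, 14.5% were called lower there. In the same comparison 3 of 7 ductal and 3 of 8 other endocrine markers fell and none rose, and 0 of 9 endothelial and 0 of 8 glial markers were called. Of the 10 β-cell markers 3 rose and 3 fell, beside 15.5% of all genes called higher. Summed fibroblast and stellate markers lay between 139 and 570 CPM in Ctr BSA and between 12.5 and 67.8 CPM in Ctr PA. In αGlu cells with PA, 5 of 8 fibroblast and stellate, 5 of 8 acinar and 1 of 11 macrophage markers fell, beside 14.2% of all genes. Summed macrophage markers lay in Ctr cells between 79.2 and 386 CPM with BSA and between 85.2 and 131 CPM with PA, and in αGlu cells between 91.4 and 177 CPM with BSA and 81.2 and 141 CPM with PA. The difference between both PA responses was called for 0 of 11 macrophage markers, although their median difference was 2.19 on the log2 scale. Glial markers moved with the oligonucleotide. Averaged over BSA and PA, 6 of 8 glial and Schwann cell markers were lower in αGlu than in Ctr (median −2.85, lowest adjusted p = 0.0151 by edgeR), beside 0.239% of all genes called, and 0 of 8 were called in BSA or in PA alone. Their summed levels ran in Ctr cells from 10.8 to 99.0 CPM with BSA and 14.3 to 72.8 CPM with PA, and in αGlu cells from 7.72 to 28 CPM with BSA and 8.22 to 13.5 CPM with PA. In these bulk libraries fewer cells of a type and less RNA per cell cannot be told apart, and the part of such cells in the results on the family was not tested.

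Length-scaled levels, given as the deposited transcripts-per-million (TPM) values, spread the family over a 111-fold range of medians. Bax was the most abundant member with a median of 126 TPM over the 24 libraries, above the guardian Mcl1 at 74.8 TPM in 23 of 24 libraries. A middle tier followed with Bbc3 (39.4 TPM), Bcl2l1 (28.9 TPM), Pmaip1 (20.4 TPM) and Bak1 (17.5 TPM). Pooled over both batches, neighbours within this tier could not be ranked beyond the spread of the libraries, since Bbc3 exceeded Bcl2l1 in 16 of 24 libraries, Bcl2l1 exceeded Pmaip1 in 13 and Pmaip1 exceeded Bak1 in 12. Within a batch most of them could be ordered. In batch 1 Pmaip1 stood below Mcl1 with a median of 67.3 TPM, above Bbc3 (47.0 TPM) in 9 of 12 libraries, Bbc3 exceeded Bcl2l1 (35.7 TPM) in 11 and Bcl2l1 exceeded Bak1 (21.6 TPM) in 12. In batch 2 Bbc3 (26 TPM) and Bcl2l1 (25.7 TPM) were not ordered, whereas Bcl2l1 exceeded Bak1 (15.6 TPM) and Bak1 exceeded Pmaip1 (9.60 TPM) in all 12. Bcl2l11 (7.0 TPM) and Bid (6.79 TPM) lay lower, both without overlap with Bak1, and Bcl2l11 exceeded Bid in 15 of 24 libraries. Bcl2 (1.41 TPM) and Hrk (1.14 TPM) were at the bottom. Of the 3 guardians among the members, Bcl2 itself was thus the scarcest transcript. In Ctr BSA cells the order was the same, with Bcl2 at a median of 1.41 TPM and Hrk at 0.446 TPM. The order of the lowest 2 pairs went with PA. Bcl2l11 exceeded Bid in 6 of 6 libraries of each BSA group. Bid exceeded Bcl2l11 in 4 of 6 Ctr PA and 5 of 6 αGlu PA libraries. Likewise Bcl2 exceeded Hrk in 6 of 6 libraries of each BSA group. Hrk exceeded Bcl2 in 4 of 6 Ctr PA libraries (medians 1.84 and 1.36 TPM) and 3 of 6 αGlu PA libraries.

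**Figure D1:**
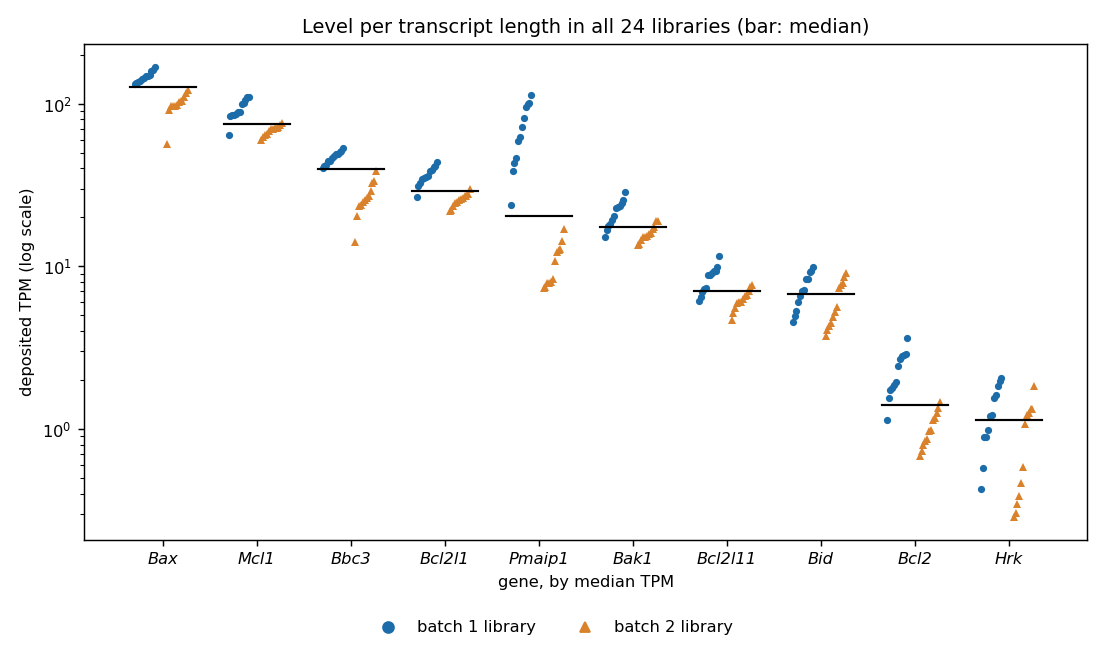
Level of each member in deposited TPM on a log axis, 1 point for each of the 24 libraries (circles batch 1, triangles batch 2), with a bar at the median. Bax (median 126 TPM) and Mcl1 (74.8 TPM) sit at the top, Bcl2 (1.41 TPM) and Hrk (1.14 TPM) at the bottom, and Pmaip1 runs from 7.35 to 113 TPM.

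The comparison of PA with BSA in Ctr cells asks how the family responds to lipotoxic stress. The transcripts of 2 BH3-only genes, Hrk and Bid, rose, while those of the BH3-only gene Bbc3 and the effector Bak1 fell, and the guardians Bcl2l1, Mcl1 and Bcl2 did not pass the test. Thus 4 of 10 members were called at an adjusted p below 0.05 (edgeR's quasi-likelihood test, Benjamini-Hochberg adjustment over all genes), beside 30% of all genes tested, of which 15.5% were higher and 14.5% lower. The members' median log2 fold change was −0.23, against 0.01 over all genes. With the replicate block 7 of 10 members were called, adding Bax, Bcl2l11 and Pmaip1, all lower, beside 35.3% of all genes. Only Hrk passed a 2-fold change with an unadjusted p below 0.05, which 5.91% of genes passed. The study's threshold is read in this way here. Beside its counts the study writes p without stating adjustment, while its legends name a Benjamini-Hochberg correction.

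**Figure D2:**
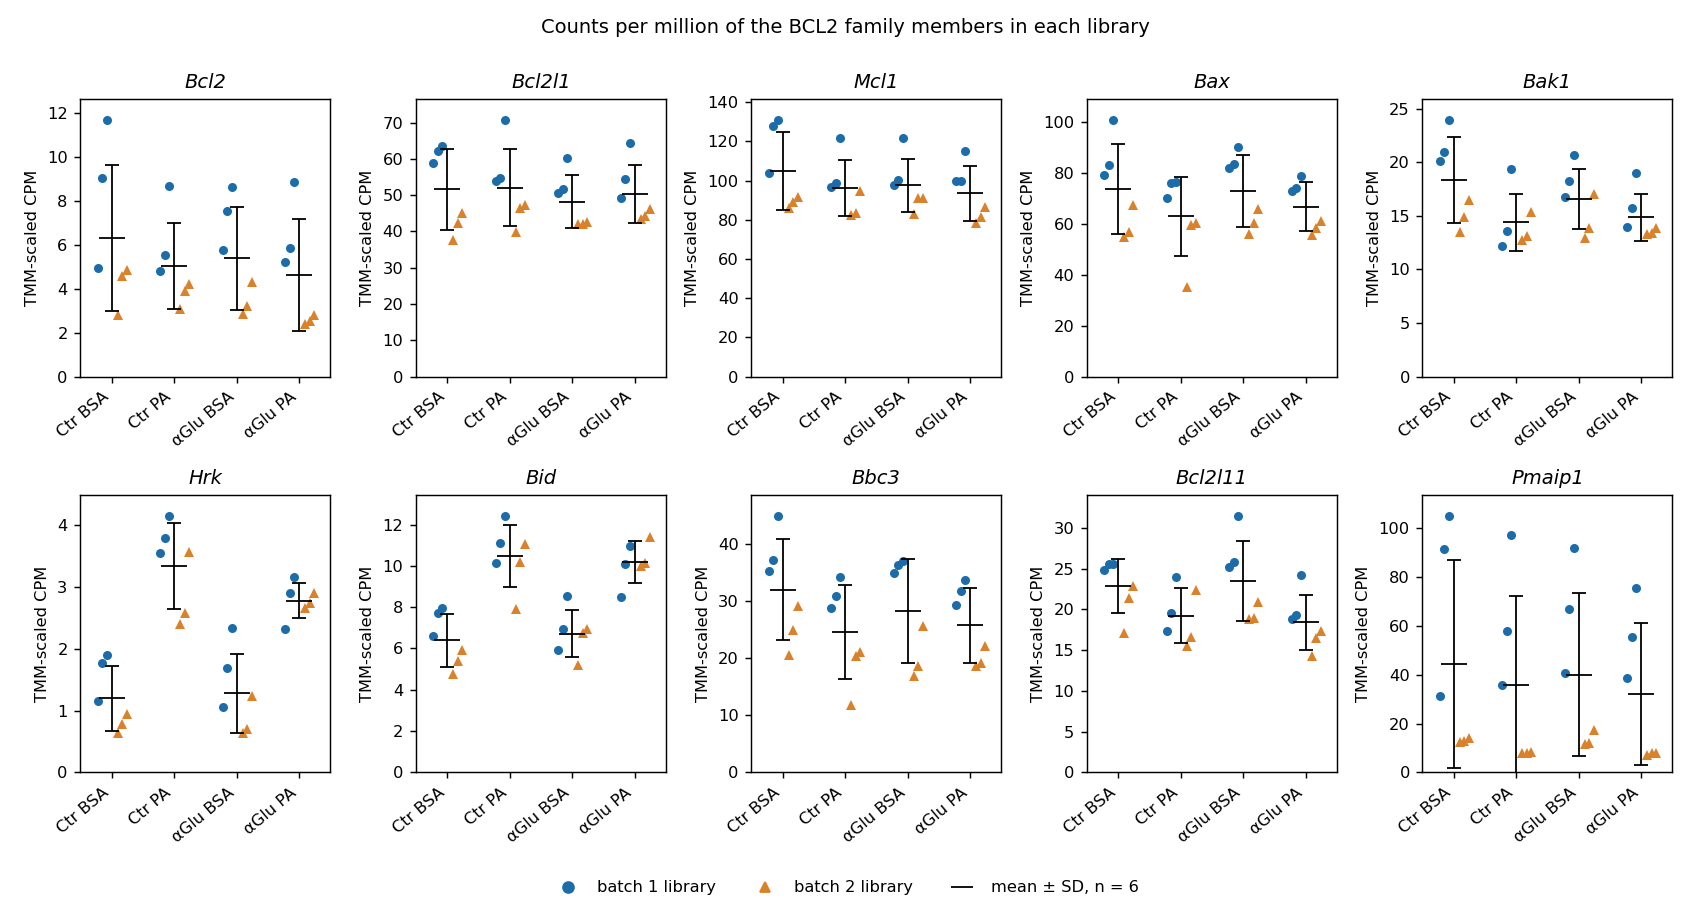
CPM of each member by group, 1 point per library (circles batch 1, triangles batch 2), with the mean and SD of 6 libraries and an axis from 0 in each panel, which cuts off the SD bar of Pmaip1 in Ctr PA. Hrk in Ctr PA (2.40 to 4.16 CPM) lies above Ctr BSA (0.636 to 1.90 CPM) without overlap, whereas over both batches Bcl2l1, Mcl1 and Bcl2 overlap between all groups.

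Hrk encodes harakiri, a BH3-only protein that binds BCL-XL. In Ctr BSA libraries Hrk measured 1.16, 1.90 and 1.78 CPM in batch 1 and 0.948, 0.781 and 0.636 CPM in batch 2. In Ctr PA libraries it measured 3.54, 4.16 and 3.79 CPM in batch 1 and 2.58, 3.57 and 2.40 CPM in batch 2. Every PA library lay above every BSA library, which held for 2.97% of all genes in this comparison. The group means were 1.2 ± 0.525 and 3.34 ± 0.697 CPM (SD, n = 6), and Hrk rose by 1.51 on the log2 scale (SE 0.232, adjusted p = 2.89e-05 by edgeR). These values rest on few reads, 17 to 69 counts per BSA library and 67 to 114 per PA library. In αGlu cells Hrk rose from 1.28 ± 0.644 to 2.78 ± 0.284 CPM (log2 fold change 1.19, SE 0.231, adjusted p = 3.98e-04 by edgeR). There the highest BSA library (2.34 CPM) reached past the lowest PA library (2.32 CPM), both of batch 1, and in that batch alone the change was 0.71 with an adjusted p of 0.148.

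Bid encodes the BH3-only protein that caspase-8 cleaves to link death receptors to mitochondria. In Ctr BSA libraries Bid measured 7.73, 7.95 and 6.61 CPM in batch 1 and 4.78, 5.38 and 5.91 CPM in batch 2. With PA it measured 11.1, 12.4 and 10.1 CPM in batch 1 and 10.2, 11.1 and 7.91 CPM in batch 2. Within each batch all PA libraries exceeded all BSA libraries. Across batches the lowest PA library (7.91 CPM) fell just under the highest BSA library (7.95 CPM). Groups within a batch are small and can separate fully by chance. The share of all genes that did so was not counted, here or for the within-batch separations of other members. Whether such a separation is unusual was therefore not tested. The log2 fold change of Bid was 0.72 (SE 0.121, adjusted p = 8.23e-05 by edgeR), with 0.59 in batch 1 and 0.86 in batch 2. In αGlu cells Bid rose from 6.72 ± 1.13 to 10.2 ± 0.998 CPM (0.61, SE 0.120, adjusted p = 4.93e-04 by edgeR), although in batch 1 alone the change of 0.46 had an adjusted p of 0.0918. Bid shares 628 of its 3550 exonic bases with Bcl2l13 on the opposite strand, and whether counting used strand is not given in the sources used here. Bcl2l13 itself differed by 0.01 and 0.06 on the log2 scale with PA in Ctr and αGlu cells and was not called.

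Promoter windows of Hrk and Bid, the members whose transcripts rose, are shown from 250 bases before to 50 after the annotated start (RefSeq, GRCm38.p6). Capitals mark matches to a C/EBP-ATF response element (TGATGNAAN, either strand) and to a GC box (GGGGCGGGG, either strand), and the 2 motifs did not overlap.
Hrk, chr5:118169514-118169813, plus strand: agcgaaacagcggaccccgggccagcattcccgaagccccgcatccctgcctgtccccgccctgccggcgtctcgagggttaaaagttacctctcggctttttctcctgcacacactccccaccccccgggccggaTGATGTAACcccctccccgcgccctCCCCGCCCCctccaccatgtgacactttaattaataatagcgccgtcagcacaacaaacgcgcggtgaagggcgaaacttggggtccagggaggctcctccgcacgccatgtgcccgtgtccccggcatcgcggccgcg
Bid, chr6:120916775-120917074, minus strand: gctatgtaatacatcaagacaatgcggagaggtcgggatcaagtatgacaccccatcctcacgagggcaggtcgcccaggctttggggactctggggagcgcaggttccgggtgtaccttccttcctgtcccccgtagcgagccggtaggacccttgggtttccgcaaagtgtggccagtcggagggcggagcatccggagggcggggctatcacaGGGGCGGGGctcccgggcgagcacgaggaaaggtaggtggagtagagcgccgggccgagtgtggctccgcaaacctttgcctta
Hrk was the only member of the 9 with a window in the table to hold the C/EBP-ATF element, 114 bases before its start, a match found in 3.95% of the 32851 windows of this length. Counted per gene, with a gene holding a motif if any of its windows did, the element was found in 4.5% of 27025 genes. GC boxes stood in windows of Bax, Bbc3, Bcl2, Bcl2l11, Bid and Hrk, against 12.9% of genes (11.4% of windows). The FOXO motif GTAAACA matched for Bbc3 and Bcl2l11 (4.05% of genes, 3.65% of windows) and a p53 half-site for Bax (9.55% of genes, 8.36% of windows). Motifs for AP-1 (8.97% of genes), E2F (1.8%), a direct repeat 1 (0.0481%) and CRE (2.03%) were searched alike and matched no member. The member windows had a GC content of 49.3% to 78%, beside a median of 52.7%, and no binding was measured in these samples.

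The other BH3-only members did not rise. Bbc3 encodes PUMA, a p53 target that binds all the guardians. In Ctr BSA libraries it ranged from 20.6 to 45.0 CPM with a median of 32.2 CPM, and in Ctr PA libraries from 11.9 to 34.4 CPM with a median of 25 CPM. The groups overlapped, and Bbc3 fell by 0.40 on the log2 scale (SE 0.117, adjusted p = 0.0121 by edgeR). Neither batch alone passed the threshold, with −0.33 (adjusted p = 0.0503) in batch 1 and −0.48 (adjusted p = 0.163) in batch 2. In αGlu cells the Bbc3 difference was −0.12 and was not called.

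Bcl2l11 encodes BIM, a BH3-only protein that engages every guardian and can activate BAX directly. Its medians were 23.9 CPM in Ctr BSA (17.1 to 25.6 CPM) and 18.4 CPM in Ctr PA (15.6 to 24 CPM), a log2 difference of −0.24 that missed the threshold (adjusted p = 0.0743 by edgeR) and passed it with the replicate block (adjusted p = 0.0123). In αGlu cells Bcl2l11 measured 25.8, 25.2 and 31.5 CPM with BSA and 19.3, 18.8 and 24.2 CPM with PA in batch 1. In batch 2 it measured 18.9, 18.9 and 20.9 CPM with BSA and 14.3, 16.5 and 17.4 CPM with PA. The PA libraries lay below the BSA libraries within both batches, and Bcl2l11 fell by 0.35 on the log2 scale (SE 0.102, adjusted p = 0.0123 by edgeR). Neither batch alone passed the threshold, with −0.41 (adjusted p = 0.0727) in batch 1 and −0.28 (adjusted p = 0.235) in batch 2.

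Pmaip1 encodes NOXA, a BH3-only protein with preference for MCL-1, and it varied more between batches than between treatments. Its log2 difference with PA in Ctr cells was −0.44 (95% confidence interval −0.97 to 0.09, adjusted p = 0.202 by edgeR) and in αGlu cells −0.50 (adjusted p = 0.156). With the replicate block both passed the threshold by edgeR, at −0.41 (95% confidence interval −0.68 to −0.15, adjusted p = 0.0148) and −0.46 (−0.72 to −0.19, adjusted p = 0.00812). In batch 2 alone it measured 12.4, 13.9 and 12.9 CPM in Ctr BSA and 8.04, 7.86 and 8.52 CPM in Ctr PA, without overlap. The change in that batch was −0.68 (adjusted p = 0.00909 by edgeR), and −0.81 in αGlu cells (adjusted p = 0.00332). In batch 1 the 3 Ctr BSA libraries spread from 31.2 to 105 CPM and the difference was −0.28. Without Ctr BSA library 1 the Ctr difference over both batches was −0.63, and without Ctr PA library 7 it was −0.69, and in both cases it passed the threshold. Whether the PA response of Pmaip1 differed between batches was tested and was not called.

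Of the 2 effectors, Bak1 fell with PA in Ctr cells and Bax did not pass the test. Bak1 measured 20.9, 20.2 and 24 CPM in batch 1 and 16.5, 14.8 and 13.5 CPM in batch 2 of Ctr BSA. In Ctr PA it measured 12.2, 19.4 and 13.6 CPM in batch 1 and 15.3, 13.1 and 12.7 CPM in batch 2. The groups separated in batch 1 and overlapped in batch 2. Bak1 fell by 0.33 on the log2 scale (SE 0.108, adjusted p = 0.0242 by edgeR), with −0.54 in batch 1 (adjusted p = 0.0495) and −0.12 in batch 2 (adjusted p = 0.560). The call was lost without Ctr PA library 3, Ctr BSA library 9 or Ctr PA library 11, which moved the adjusted p to as much as 0.0753. Bak1 shares exonic bases with 2 entries named Ggnbp1 on the opposite strand, 1 of which was higher with PA in αGlu cells (0.64, adjusted p = 0.00323). Bax, the other effector, had medians of 73.4 CPM in Ctr BSA (55.0 to 101 CPM) and 65.4 CPM in Ctr PA (35.2 to 76.7 CPM). Its log2 difference of −0.22 missed the threshold (adjusted p = 0.0729 by edgeR) and passed it with the replicate block (adjusted p = 0.0289), and in αGlu cells the differences of Bax and Bak1 were −0.12 and −0.15 and were not called.

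**Figure D3:**
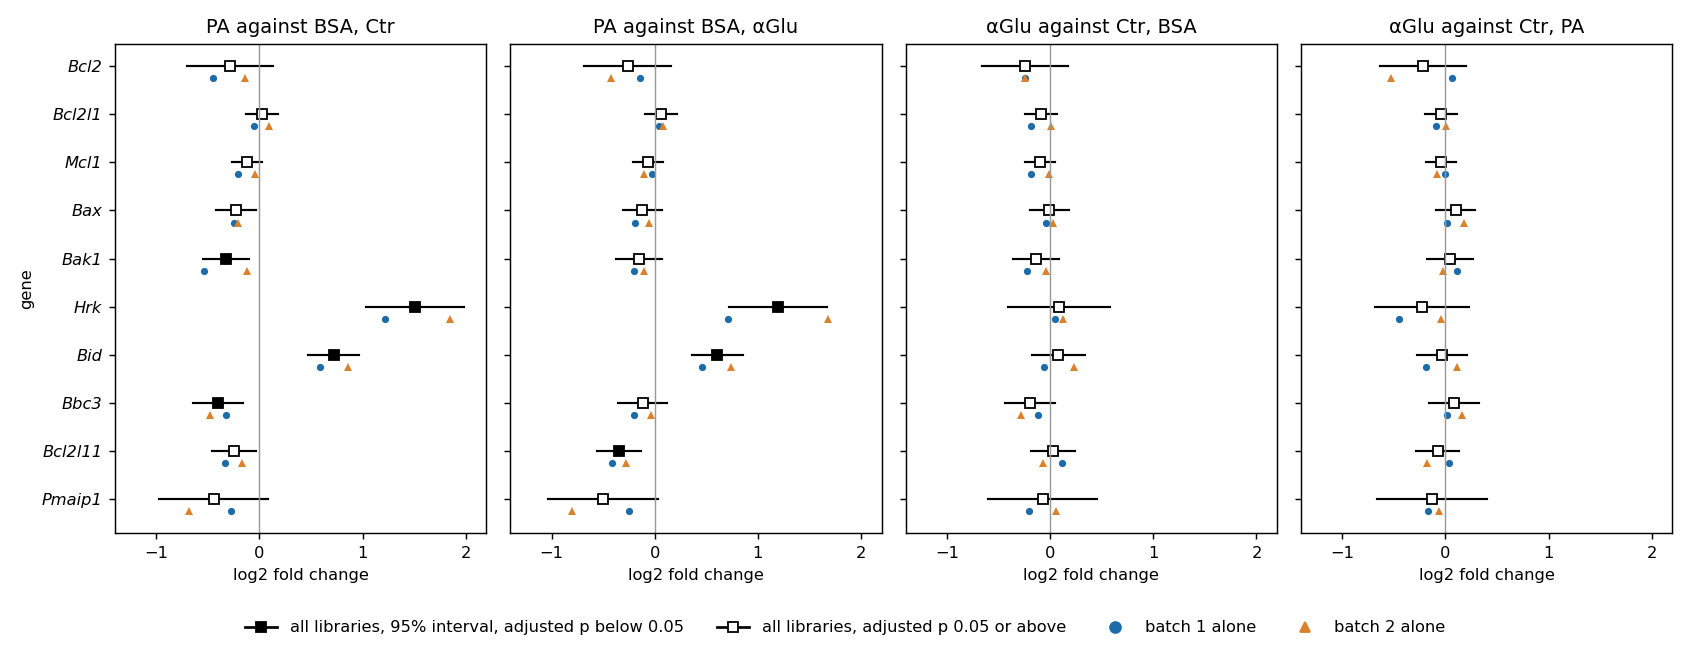
Log2 fold change of each member in 4 panels, the left pair for the PA response under each oligonucleotide and the right pair for αGlu against Ctr under each exposure, with 95% confidence intervals from the edgeR fit over 24 libraries (filled squares, adjusted p below 0.05) and each batch alone as small symbols. Hrk (1.51 and 1.19) and Bid (0.72 and 0.61) lie right of 0 with PA under both oligonucleotides, and no square is filled for αGlu against Ctr.

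None of the member guardians Bcl2l1, Mcl1 and Bcl2 passed the test with PA. Bcl2l1 (BCL-XL) measured 58.8, 63.5 and 62.2 CPM in batch 1 and 42.4, 45.1 and 37.8 CPM in batch 2 of Ctr BSA. In Ctr PA it measured 54.6, 70.7 and 53.8 CPM in batch 1 and 46.3, 47.3 and 39.7 CPM in batch 2. The groups overlapped in both batches, and the log2 fold change was 0.02 (SE 0.0753, 95% confidence interval −0.13 to 0.18, adjusted p = 0.856 by edgeR). In αGlu cells it was 0.06 (−0.09 to 0.22). Mcl1, encoding the short-lived guardian MCL-1, ranged from 86.1 to 131 CPM in Ctr BSA (median 97.9 CPM) and from 82.3 to 122 CPM in Ctr PA (median 95.6 CPM), a difference of −0.12 (adjusted p = 0.214 by edgeR). Bcl2 ranged from 2.80 to 11.7 CPM in Ctr BSA (median 4.91 CPM) and from 3.06 to 8.68 CPM in Ctr PA (median 4.52 CPM), a difference of −0.29 (adjusted p = 0.298 by edgeR). In αGlu cells the differences were −0.06 for Mcl1 and −0.26 for Bcl2, neither of them called. In batch 2 alone the αGlu PA libraries lay without overlap above αGlu BSA for Bcl2l1 and below it for Bcl2. Whether such a separation within a batch is unusual was not tested. With PA in αGlu cells 3 of 10 members were called in all, Hrk, Bid and Bcl2l11, beside 28.5% of all genes (14.4% higher and 14.2% lower), and 4 members were called with the replicate block, which added Pmaip1, beside 34.1%. Hrk alone passed the 2-fold threshold there, beside 5.57% of genes, and no member separated all PA from all BSA libraries, as 8.12% of genes did in either direction.

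The study measured Bcl2l1 by qPCR relative to Gapdh in mouse islets, and Bcl2 by qPCR, so the ratio to Gapdh was formed from the counts for both. It reports that Bcl2l1 fell with PA in Ctr cells and was preserved with αGlu, and that Bcl2 was not significantly altered. The primer pair is shown because it defines which Bcl2l1 transcripts such an assay sees.
Bcl2l1 forward primer: gccacctatctgaatgaccacc
Bcl2l1 reverse primer: aggaaccagcggttgaagcgc
The pair bounded a 134-base coding product from exon 2 into exon 3 (chr2:152782203-152829480, minus strand, GRCm38, GENCODE vM21) in 2 of the 9 annotated Bcl2l1 transcripts, and in no other gene. Counts summarise the gene and do not separate these transcripts from the others. Per 1000 Gapdh counts, Bcl2l1 in Ctr cells measured 246 ± 41.0 with BSA and 234 ± 37.3 with PA, and in αGlu cells 243 ± 44.8 with BSA and 231 ± 46.5 with PA (SD, n = 6). The log2 difference with PA was −0.07 in Ctr cells (p = 0.325, adjusted p = 0.552) and −0.08 in αGlu cells (p = 0.16, adjusted p = 0.552) by a two-sided exact permutation test within batches, adjusted over 8 comparisons. The difference of αGlu from Ctr was −0.02 in BSA and −0.03 in PA (exact permutation p = 0.75 and p = 0.635). The test has 400 arrangements and cannot give a p below 0.005. The fall of Bcl2l1 that the study reports by qPCR in Ctr cells was not called in the counts, and the reason was not tested.

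Bcl2 per 1000 Gapdh counts in Ctr cells measured 30.2 ± 15.8 with BSA and 22.5 ± 7.50 with PA, and in αGlu cells 27.4 ± 12.7 with BSA and 21.4 ± 11.9 with PA. The lowest p of the 8 was that of PA in αGlu cells, a log2 difference of −0.42 (exact permutation p = 0.02, adjusted p = 0.16), and the other 3 Bcl2 comparisons had differences of −0.34, −0.13 and −0.21 with adjusted p values of 0.552 to 0.731. Gapdh itself was not called in any comparison, with 0.09 and 0.14 for PA in Ctr and αGlu cells. Reads from its many processed pseudogene copies may be shared between annotations, so its level is uncertain.

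**Figure D4:**
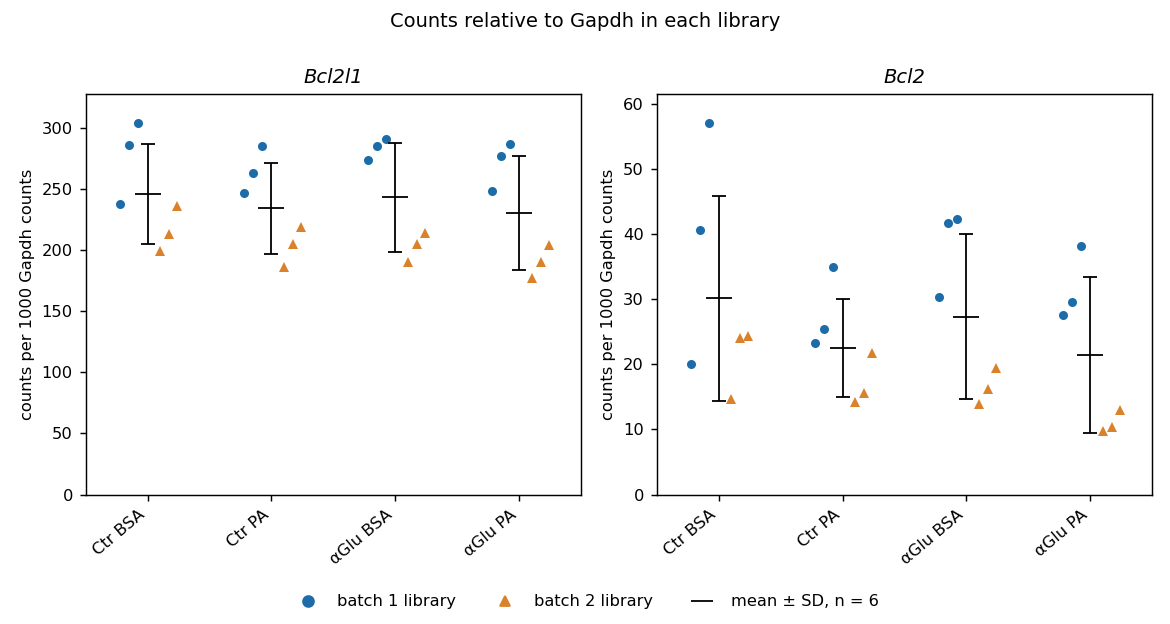
Bcl2l1 and Bcl2 counts per 1000 Gapdh counts by group, 1 point per library (circles batch 1, triangles batch 2), with the mean and SD of 6 libraries. Bcl2l1 means lie between 231 and 246 in the 4 groups, and within each group its batch 1 libraries lie above those of batch 2.

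The comparison of αGlu with Ctr asks whether inhibiting the fragment altered the family, in vehicle or under PA. No member and no gene of the 15916 was called in BSA or in PA (0% of genes in each), and no member had an unadjusted p below 0.05 in edgeR, beside 461 genes (2.90%) in BSA and 538 genes (3.38%) in PA. At a 2-fold change with an unadjusted p below 0.05, 125 genes (0.785%) passed in BSA and 150 genes (0.942%) in PA, and 0 members. The study reports genes past its own threshold in both comparisons. DESeq2 called 8 and 30 genes and edgeR with the replicate block 9 and 0 genes, none of them members. Member log2 differences lay between −0.24 and 0.09 in BSA and between −0.23 and 0.10 in PA. Within a batch, αGlu PA lay below Ctr PA without overlap for Bcl2 in batch 2 and for Hrk in batch 1. Groups of 3 libraries can separate so by chance, the share over all genes was not counted, and whether this is unusual was not tested. For Bcl2l1 the αGlu groups measured 48.2 ± 7.35 CPM in BSA and 50.3 ± 7.93 CPM in PA, against 51.6 ± 11.2 and 52.1 ± 10.6 CPM in Ctr. Its log2 differences were −0.09 (95% confidence interval −0.24 to 0.07) in BSA and −0.05 (−0.20 to 0.11) in PA.

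Whether αGlu changed the response to PA was tested as the difference between both responses. It was called for no member and no gene (0%), with 332 genes (2.09%) at an unadjusted p below 0.05 and 0 genes by DESeq2. The widest member differences were −0.32 for Hrk (95% confidence interval −0.98 to 0.35, unadjusted p = 0.340 by edgeR) and 0.28 for Bbc3 (−0.06 to 0.62, unadjusted p = 0.104). Bcl2l1 differed by 0.04 (−0.18 to 0.26). Members called under 1 oligonucleotide, such as Bbc3, Bak1 and Bcl2l11, were therefore not shown to respond differently under the other, and the interval for Hrk spans a change of nearly 2-fold.

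More members differed with batch than with PA. With groups held equal, 9 of 10 members were lower in batch 2 than in batch 1, beside 51.5% of all genes called and 25.4% lower, and Bid alone was not called (−0.19, adjusted p = 0.0722 by edgeR). Pmaip1 had the widest gap, 65.6 ± 26.3 CPM (31.2 to 105 CPM) in batch 1 against 10.7 ± 3.15 CPM (7.33 to 17.2 CPM) in batch 2 (SD, n = 12), without overlap, which held in either direction for 6.87% of all genes. Its log2 difference was −2.66 (95% confidence interval −3.05 to −2.27). Bcl2 differed by −1.07 (means 7.21 and 3.46 CPM), Bbc3 by −0.74, Hrk by −0.58, Bax by −0.48 and Bcl2l1 by −0.42. Bcl2l1 ranged from 49.1 to 70.7 CPM in batch 1 and from 37.8 to 47.3 CPM in batch 2, also without overlap. Mcl1, Bcl2l11 and Bak1 differed by −0.34, −0.33 and −0.32.

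Exocrine markers moved with batch in the same libraries. All 8 acinar markers were lower in batch 2, with summed levels of 3040 to 22173 CPM in batch 1 and 221 to 600 CPM in batch 2, while all 10 β-cell markers were higher. The part of acinar RNA, of the preparation or of any other property of a batch in the members' difference cannot be told apart. The PA response itself was not shown to depend on batch for any member (0 of 10, beside 0.0565% of all genes called by edgeR, 9 genes, and 983 genes or 6.18% at an unadjusted p below 0.05). DESeq2 called 43 genes and no member. Hrk came closest, with a PA response larger by 0.79 in batch 2 (95% confidence interval 0.18 to 1.40, unadjusted p = 0.0138, adjusted p = 0.618 by edgeR).

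**Figure D5:**
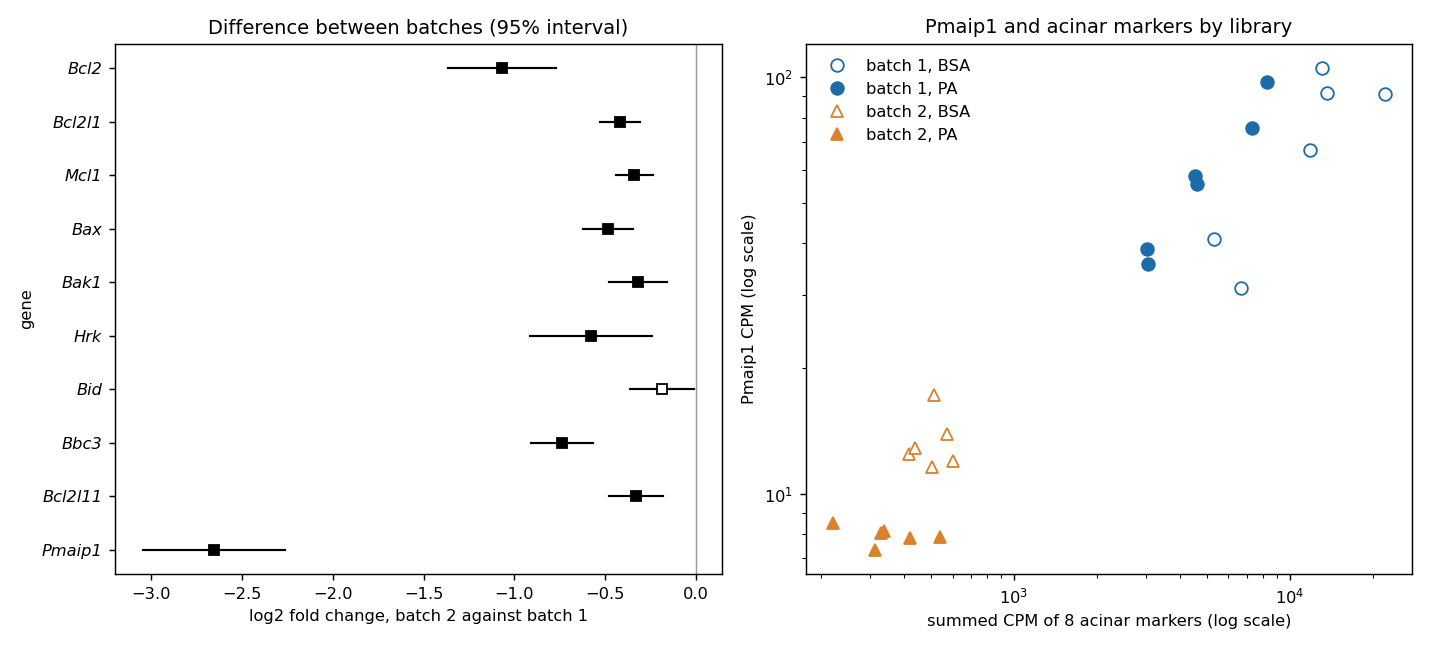
Left, log2 difference of batch 2 from batch 1 for each member with its 95% confidence interval (open square, not called). Right, Pmaip1 CPM against the summed CPM of 8 acinar markers on log axes, 1 point per library (circles batch 1, triangles batch 2, open BSA, filled PA), where the batches stand apart on both axes, at 31.2 to 105 against 7.33 to 17.2 CPM for Pmaip1.

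Genes that act around these members were followed in fixed lists. With PA, 30% of all genes were called in Ctr cells and 28.5% in αGlu cells. Among 10 tested of 15 other BCL2 family genes, 3 rose and 4 fell with PA in Ctr cells, and the list's median log2 fold change was −0.07 (3 rose and 3 fell in αGlu cells). The guardian Bcl2l2 (BCL-w) rose by 0.43 from 63.0 to 84.3 CPM (adjusted p = 4.85e-06 by edgeR), and by 0.49 in αGlu cells. Bcl2l14 rose by 0.76 and by 0.73 in αGlu cells. Bok, a relative of the effectors, changed by −1.0, the BH3-only gene Bik by −0.80 and Bcl2l12 by −0.79, of which only Bcl2l12 was also called in αGlu cells, at −0.98.

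Downstream of the mitochondria, 4 of 18 tested caspase and apoptosome genes rose and 4 fell (median −0.01), beside 30% of all genes called. Apaf1, the scaffold on which caspase-9 is activated, fell by 0.52 from 29.6 to 20.8 CPM (adjusted p = 1.54e-06 by edgeR). Cycs, encoding cytochrome c, rose by 0.26, and the outer membrane channels Vdac1 and Vdac3 rose by 0.27 and 0.31. Dffa, the inhibitor of the apoptotic nuclease, rose by 0.24. Of 9 inhibitors of apoptosis and their antagonists 1 rose, Naip2 (0.45), and 1 fell, Septin4 (−1.18, from 1.30 to 0.566 CPM). In αGlu cells 4 caspase and apoptosome genes rose and 4 fell, and 1 inhibitor gene rose and 1 fell, beside 28.5% of all genes.

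Upstream of the BH3-only genes, 6 of 20 tested regulators rose and 6 fell in Ctr cells, and 6 and 6 in αGlu cells, with medians of 0.01 and −0.03. The shares called over all genes were 30% and 28.5%. Ddit3 (CHOP), a transcription factor of the endoplasmic reticulum stress response, rose from 50.6 to 75.6 CPM in Ctr cells (0.60, adjusted p = 8.63e-04 by edgeR) and from 46.4 to 75.3 CPM in αGlu cells (0.72, adjusted p = 1.35e-04). A further entry of Ddit3 in the gene table was not used. By qPCR in mouse islet cells the study reports that αGlu prevented this rise, and why the counts differ was not tested. Trib3, a CHOP target, rose by 0.68 and 0.79, and the cell cycle factor E2f1 by 0.68 and 0.83. Mdm2, the ubiquitin ligase of p53, fell by 0.21 in Ctr cells and by 0.24 in αGlu cells, and Ppp1r13b, which codes for a p53 partner, had log2 fold changes of −0.31 and −0.31. In the comparisons of αGlu with Ctr, and in the difference between both PA responses, 0 genes of all 4 lists were called by edgeR.

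Across the 24 libraries, after each batch mean was subtracted from log2 CPM, the members' own levels formed a few loose groupings. Bid and Hrk had a Pearson correlation of 0.83, Bax and Bbc3 of 0.82, and Mcl1 and Pmaip1 of 0.77, while Bcl2l11 and Bid stood at −0.74. The genes most like Bcl2l1 were Fetub (0.90), Clic1 (0.84), Apex1 (0.83), Hnrnpab (0.82) and Rpl7 (0.81). The least like it were Sgpp2 (−0.85), Creb3l2 (−0.84) and Zfp612 (−0.84). These values describe libraries that share treatments, scaling and cell mixture.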

How the data were processed

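Polyadenylated RNA of 24 libraries (Illumina Stranded mRNA, AVITI) was quantified by the authors in the QIAGEN RNA-seq Analysis Portal v5.1 on GRCm38, per the submitters' processing notes. No source used here gives the aligner settings, the annotation or the use of strand. The gene table holds deposited whole-number counts and TPM per gene, the TPM as the authors deposited them, and empty cells were read as 0. The 24 RPKM and 24 CPM columns, 48 in all, were not used. One line without a gene name held 0 counts.

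Counts were filtered (filterByExpr, 10 counts), scaled by TMM and fitted over all libraries with group and batch by edgeR 4.0.16's quasi-likelihood test (limma 3.58.1, R 4.3.3), with Benjamini-Hochberg adjustment over 15916 genes at 0.05. The biological coefficient of variation was 15.4%. CPM are TMM-scaled, with a prior count of 2 on the log2 scale. Totals of 18214719 to 35001979 counts set the precision, and intervals of fold changes are at 95%. Gapdh ratios used exact permutation within batches. Scripts were tested on simulated data. Tests across a bulk table assume libraries are independent.

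Alternatives were DESeq2 1.42.0, upper-quartile scaling, other filters, no batch term, each batch alone, fits of 2 groups, the study's threshold, other reference genes and each library left out, and, chosen after seeing the data, a replicate block of 4 consecutive library numbers in place of batch.

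All 10 members are given. Of each list at most 5 genes with the smallest p among those called with PA in Ctr cells are named, with the 5 genes most and the 3 least correlated with Bcl2l1, Ddit3 and Gapdh. Members and lists were chosen with earlier results of these data known. Sequences came from RefSeq, GENCODE vM21 and the study's oligonucleotide tables. Positions and sequence of Pmaip1 are not reported here.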

Additional observations from a re-analysis of the deposited data

Results flagged for a closer look

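Each group of 6 libraries was screened with Dixon's 95% criterion for the members and the named genes of the lists, 120 groups in all. No member had a library past this criterion. Each group held libraries of both batches, so a gap between batches widens the range and can hide a library that differs within its batch. Bax in Ctr PA library 23 measured 35.2 CPM, against 60.3 and 59.5 CPM in batch 2 libraries 15 and 19 of that group, and was not flagged. Bbc3 measured 11.9 CPM in library 23, against 20.4 and 21.2 CPM. Chance alone gives about 1 in 20 such groups, and 2 were found. Bok measured 7.65 CPM in Ctr PA library 7, far from the next highest library of that group at 2.76 CPM, within a range of 0.931 to 7.65 CPM. Vdac3 measured 71.1 CPM in Ctr PA library 3, below the next lowest library at 81.7 CPM, within a range of 71.1 to 87.6 CPM.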

How the results depend on the processing

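The labels give no shared replicate numbers. The replicate block of 4 consecutive library numbers, chosen after seeing the data, rests on the numbers and on same-set correlations of 0.02 to 0.37, of which 25 of 36 exceeded 0.1. It raised the members called with PA from 4 to 7 in Ctr and from 3 to 4 in αGlu cells, added Septin4 in αGlu cells (−0.93) and changed no other call of a member, listed gene or Gapdh ratio. The 10 member fold changes of 8 comparisons were recomputed 2520 times. In 2489 cases direction and side of the threshold held, 14 lost a call, 17 gained one, no called change reversed, and 90 uncalled differences changed sign. Members called with PA in Ctr cells numbered 4, but 1 at the study's threshold, 2 with no term for batch, 5 by DESeq2 (adding Bax) and 5 by upper-quartile scaling (adding Bcl2l11). With PA in αGlu cells they numbered 3, but 1 at the study's threshold and 0 in batch 1 alone, and between batches 9, but 2 at the study's threshold. With each library left out in turn these counts ranged from 3 to 5, stayed at 3, and ranged from 9 to 10. The comparisons of αGlu with Ctr kept 0 members in every alternative run. Over all genes, 4772 calls with PA in Ctr cells became 2312 with no term for batch, 2033 in batch 1 alone and 1833 in batch 2 alone, where fewer libraries entered, and 4543 calls in αGlu cells became 2271, 1644 and 1902. The study's threshold gave 941, 886 and, between batches, 1015 in place of 8197. Averaged over BSA and PA, αGlu against Ctr called 0 members and 38 genes, 90 by DESeq2 and 81 with no filter.

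Left-out libraries changed further calls. Bax with PA in Ctr cells passed without Ctr PA library 15 (−0.27) or 19 (−0.26), Bcl2l11 without Ctr BSA library 17 (−0.28) or Ctr PA library 23 (−0.34), and Bid between batches without αGlu BSA library 10 (−0.21) or αGlu PA library 12 (−0.22) or 20 (−0.21). Of 1188 recomputed fold changes of named list genes 1127 held, 47 lost a call, 14 gained one and none reversed. With PA in Ctr cells Bok, Bik, Bcl2l12 and Dffa lost theirs with no term for batch and in each batch alone, Bcl2l14 and Cycs with no such term and in batch 1 alone, and Apaf1 (adjusted p = 0.0670 by edgeR), E2f1 and Mdm2 with no such term, Mdm2 also in batch 2 alone. Septin4 lost it in batch 2 alone (−0.56), among the 12 libraries of both groups and without Ctr BSA library 1 (−0.87), and Dffa also among those 12. In αGlu cells Cycs lost its call with no filter, with no batch term, in each batch alone and without several single libraries, and Bcl2l14, Bcl2l12, Vdac3, Dffa, Naip2 and Mdm2 with no batch term or within a batch. Bik and Septin4 gained calls there by DESeq2, among 12 libraries and without some single libraries. Bcl2 relative to Gapdh with PA in αGlu cells ranged from −0.63 to −0.23 with 1 library left out and passed without αGlu PA library 8 (−0.63, exact permutation, adjusted p = 0.04). For αGlu against Ctr in PA that ratio was 0.20 in batch 1 alone and −0.62 in batch 2 alone, where the smallest exact p is 0.1. The cause of these shifts was not tested. Hrk and Bcl2 rest on few counts per library, and RNA levels say nothing of protein cleavage or turnover.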
